A study of Mus musculus with 12 samples.

Results

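Contractile and smooth muscle genes were followed in primary aortic adventitial fibroblasts through 10 genes chosen by name: the smooth muscle actins Acta2 and Actg2, the tropomyosins Tpm1 and Tpm2, the actin-binding proteins Cnn1, Tagln and Lmod1, the myosin heavy chain Myh11, the myosin light chain Myl9, and the intermediate filament gene Des. They are 10 of the 54352 gene symbols in the deposited count table, and all 10 passed the filter on low counts in every comparison. The fibroblasts, which are the cells that lay down collagen in the outer vessel layer, were grown from the aortic root and ascending aorta or from the descending thoracic aorta of wild-type C57Bl/6 mice, which the labels put at 14 weeks of age and the study's methods describe as male and at another age. The adventitia was pulled off the muscular media by hand and cut into pieces, and the cells that grew out were passaged once per the labels and then given TGFβ at 10 ng/mL or its solvent alone for 48 h. The study's methods give the same number of passages, whereas its results text gives a larger one. Total RNA was sequenced from 3 cultures in each of 4 groups, namely descending control, descending TGFβ, ascending control and ascending TGFβ, which makes 12 libraries in 1 labelled batch. Neither the labels nor the study's methods say which animals each culture came from, so p-values measure the spread between these cultures, which may be technical.

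Smooth muscle cells contract when myosin, built of heavy chains and regulatory light chains, pulls on filaments of actin that carry tropomyosin and calponin. Fibroblasts use cytoplasmic actins and myosins instead, but in response to TGFβ many of them assemble stress fibers that contain smooth muscle α-actin, the state called a myofibroblast, which is known in the adventitia of injured arteries. Serum response factor, with its coactivators of the myocardin family, binds the CArG box in the promoters of many of these genes, and factors of the TEAD family bind the MCAT element.

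Promoter sequence was available for 7 of the 10 genes (Acta2, Cnn1, Myl9, Tpm1, Tpm2, Lmod1 and Des), as the 250 bases before the RefSeq start of each gene in GRCm38.p6. These windows were searched on both strands for a CArG box (CC, then 6 bases that are each A or T, then GG), for the same box with 1 G or C among those 6 bases, and for the MCAT element, CATTCC or its reverse complement GGAATG. A CArG box was found in 1.47% of 32851 promoter windows of this length, the box with 1 G or C in 7.25%, and an MCAT element in 12.6%. Of the 7 genes, 1 held a CArG box, 2 held the variant box and 3 held an MCAT element. The windows of 4 genes are shown, for 3 genes that rose with TGFβ at both sites and for Des, which had negative values at both, with every match in capitals.
Acta2, GRCm38.p6 chr19:34255374-34255623, minus strand: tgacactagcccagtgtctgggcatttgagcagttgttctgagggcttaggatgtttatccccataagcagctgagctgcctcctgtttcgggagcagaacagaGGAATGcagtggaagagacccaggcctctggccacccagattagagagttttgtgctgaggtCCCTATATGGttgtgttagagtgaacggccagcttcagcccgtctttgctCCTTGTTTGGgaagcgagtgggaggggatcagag
Myl9, GRCm38.p6 chr2:156775214-156775463, plus strand: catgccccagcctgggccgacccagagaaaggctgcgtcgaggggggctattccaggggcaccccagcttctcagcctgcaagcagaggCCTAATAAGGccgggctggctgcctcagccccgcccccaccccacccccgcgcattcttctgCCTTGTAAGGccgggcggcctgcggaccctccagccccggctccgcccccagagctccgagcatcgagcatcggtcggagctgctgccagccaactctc
Tpm1, GRCm38.p6 chr9:67049214-67049463, minus strand: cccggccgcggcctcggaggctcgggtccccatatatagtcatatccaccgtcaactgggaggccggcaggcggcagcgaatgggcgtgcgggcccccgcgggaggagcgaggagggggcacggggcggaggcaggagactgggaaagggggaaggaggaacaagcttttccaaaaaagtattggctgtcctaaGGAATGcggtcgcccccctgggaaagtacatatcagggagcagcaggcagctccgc
Des, GRCm38.p6 chr1:75360042-75360291, plus strand: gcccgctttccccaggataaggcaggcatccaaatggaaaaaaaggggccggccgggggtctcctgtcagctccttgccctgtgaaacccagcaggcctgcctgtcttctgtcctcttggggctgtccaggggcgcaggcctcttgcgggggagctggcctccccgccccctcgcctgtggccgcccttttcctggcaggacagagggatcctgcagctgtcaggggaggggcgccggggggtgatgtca

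The Acta2 window held 2 variant boxes, CCCTATATGG at 84 to 75 and CCTTGTTTGG at 34 to 25 bases before the start, and an MCAT element at 146 to 141. Myl9 held the CArG box CCTAATAAGG at 161 to 152 bases and the variant CCTTGTAAGG at 99 to 90 bases before its start. Tpm1 held an MCAT element at 56 to 51 bases before its start, and Lmod1 held 1 at 130 to 125. The windows of Cnn1, Tpm2 and Des held none of these letters. RefSeq and GENCODE vM21 differ in where these genes start. On the minus strand GENCODE begins Acta2 further upstream, at 34255590, and Tpm1 at 67049406. All matches in the Acta2 and Tpm1 windows thus lie within the GENCODE spans of these genes. The matches of Myl9 and Lmod1 lie outside theirs. Other starts of the genes were not searched. A match is a description of the sequence and not evidence of binding, and none of the files analysed measured binding in these cells.

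Library totals ran from 16250126 to 23892943 counted reads, and levels are given as normalized CPM, a count relative to its library's total after edgeR's TMM scaling. The floor was set at 3 counts, which equals 0.117 to 0.207 CPM depending on the library and covers counting error only. The library descending control replicate 3 stood apart. In it 13031 genes had any count, where the other libraries had 19337 to 20931, and mitochondrial genes took 11% of its counts and 0.703 to 1.03% of theirs. Among the contractile genes, its level relative to the mean of the other descending controls was 0.980 for Acta2, 0.981 for Actg2 and 1.09 for Des, but 2.50 for Lmod1, 1.90 for Myh11, 1.49 for Tpm1 and 1.27 for Tpm2, and 0.738 for Myl9, 0.400 for Tagln and 0.332 for Cnn1. Over 14637 genes the median absolute log2 ratio of this library to the other descending controls was 0.927. By this measure the contractile genes lay between percentiles 1.80 (Actg2) and 70.6 (Cnn1) of all genes. Tests of the 10 genes that use this library are given with it and without it.

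The cultures carried the RNA of fibroblasts. All 12 fibroblast markers of the list, which includes Pdgfra, Dcn and Col1a1, were above the floor in every library, and their summed level ranged from 15504 to 27376 CPM. That sum was mostly collagen RNA. Col1a1 ranged from 5426 to 14204 and Col1a2 from 3561 to 8787 CPM, beside 321 to 1713 for Thy1 and 0.709 to 39.7 for Lum. Of 12 smooth muscle cell markers outside the 10 genes, 7 were above the floor in every library, with a summed level of 392 to 401 CPM in descending controls, 422 to 450 in descending TGFβ, 263 to 279 in ascending controls and 213 to 228 in ascending TGFβ. Myocd, the smooth muscle coactivator of serum response factor, had 0 to 15 counts per library, and Kcnmb1, Casq2, Ramp1 and Sost had at most 34. The pericyte list of 7 genes, which shares Notch3 with the smooth muscle list, summed to 149 to 347 CPM in descending controls, 549 to 620 in descending TGFβ, 220 to 241 in ascending controls and 286 to 304 in ascending TGFβ, with Kcnj8 and Higd1b at the floor in all libraries. Endothelial markers summed to at most 28.1 CPM, with Tie1 and Cldn5 at 0 in all libraries, and macrophage markers to at most 55.8 CPM outside the ascending controls, of which 1 library reached 407. Schwann cell markers summed to at most 13.4 CPM, and mesothelial markers to 85.4 to 101 CPM in ascending controls, 48.6 to 58.0 in ascending TGFβ libraries and at most 29.0 in the descending ones. The part of other cells in the results was not tested, and in bulk RNA a change in the number of cells of a type and a change in RNA per cell cannot be told apart.

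Levels per kb of exon set Acta2 first and Des last in all 4 groups. The Acta2 level was 1053 ± 15.5 CPM per kb (SD, n = 3) in descending controls (1060.0 without replicate 3), 3583 ± 107 in descending TGFβ, 678 ± 27.3 in ascending controls and 2248 ± 21.5 in ascending TGFβ. The next 3 places were held by Myl9, Tpm1 and Tpm2, which ranged between 74.7 and 335 CPM per kb on average. In descending controls these were 226 for Tpm2, 124 for Myl9 and 117 for Tpm1, or 208, 136 and 101 without replicate 3. Their order changed between groups, and in descending TGFβ the libraries of the 3 genes overlapped, with means of 335 ± 15.2, 321 ± 12.6 and 329 ± 10.7 CPM per kb. The other 5 genes above Des (Cnn1, Actg2, Lmod1, Tagln and Myh11) averaged between 2.06 and 37.0 CPM per kb, with the highest mean for Cnn1 in descending TGFβ and the lowest for Myh11 in ascending TGFβ. The Tagln level is uncertain, since 67.9% of its exon bases are overlapped by Gm48529 and Pcsk7 on the opposite strand, and the strand setting of the counting is not given in the sources used here.

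**Figure D1:**
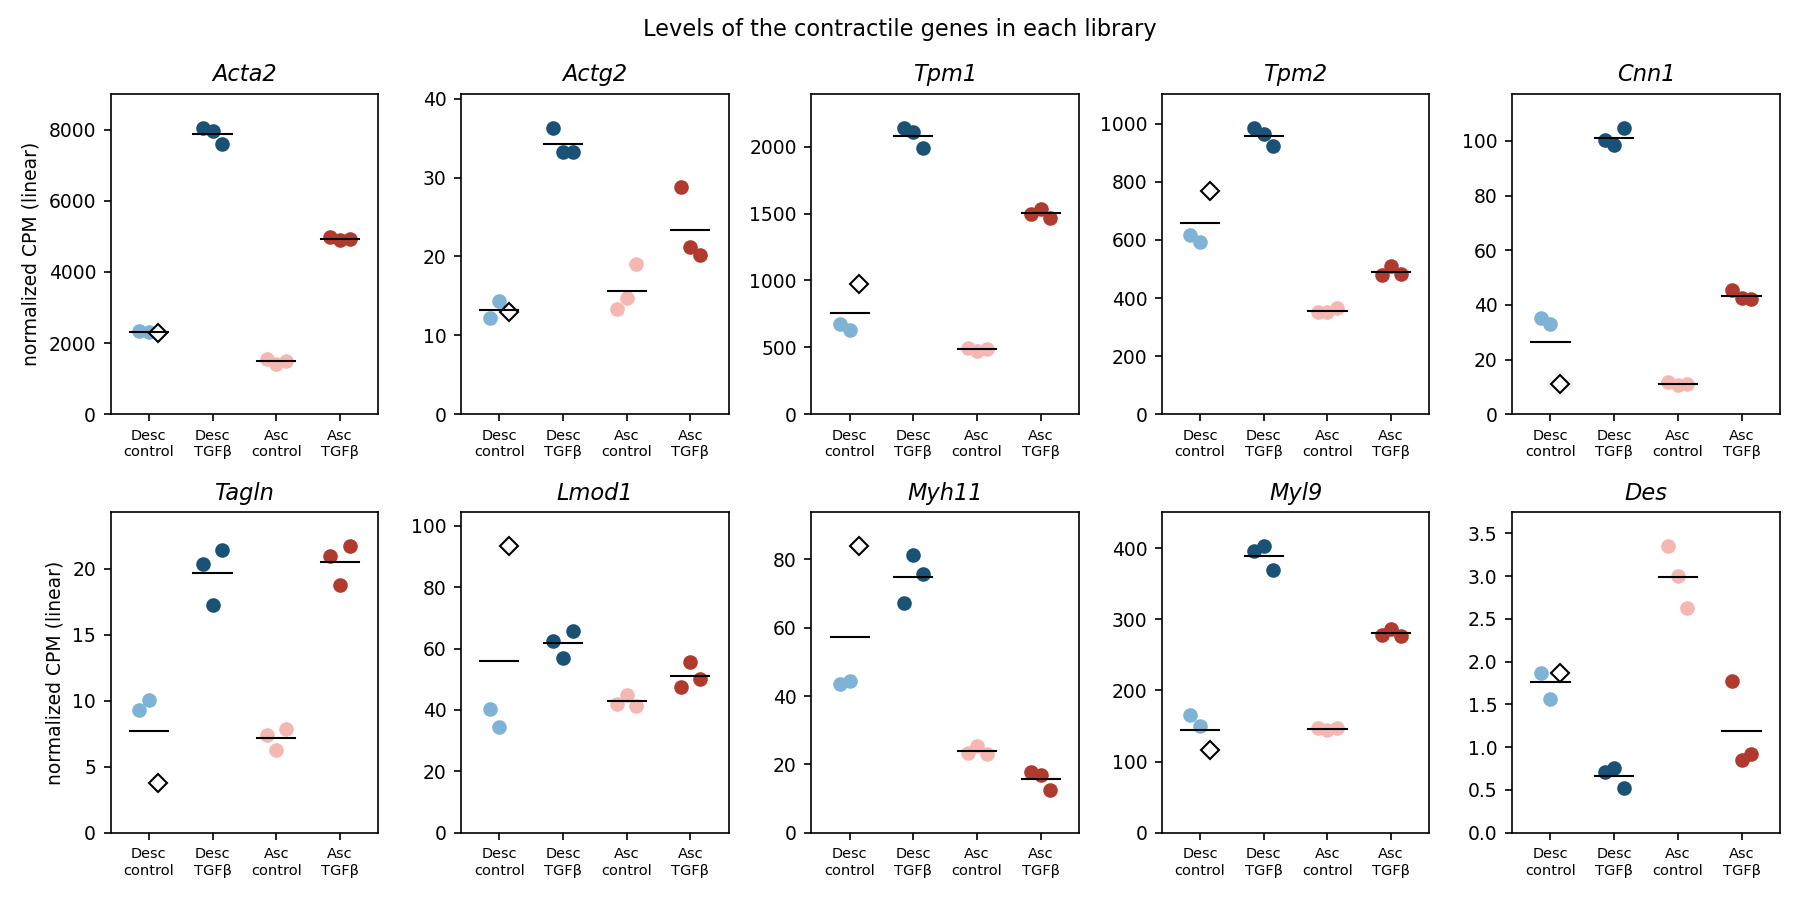
Normalized CPM of each gene in the 12 libraries (y axis, linear, from 0), by group on the x axis. Points are libraries, lines are group means over 3 libraries, and the open diamond is descending control replicate 3. In Acta2, Tpm1 and Cnn1 both TGFβ groups lie above both control groups, whereas the ascending TGFβ libraries of Myh11, at 12.5 to 17.7 CPM, are the lowest of that gene.

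The first question was how the 10 genes responded to TGFβ at each site. In ascending fibroblasts all 10 changed by the quasi-likelihood test of edgeR, with Benjamini-Hochberg adjusted p under 0.05, 8 of them upward (Acta2, Actg2, Tagln, Cnn1, Myl9, Tpm1, Tpm2 and Lmod1) and 2 downward (Myh11 and Des). Of all 13917 genes tested there, 55.8% changed, 28.2% upward and 27.6% downward. The median log2 fold change of the 10 genes was 0.75, beside -0.00 over all genes. In descending fibroblasts 5 genes changed with all 6 libraries, all upward (Acta2, Actg2, Cnn1, Myl9 and Tpm1), where 8.07% of 13825 genes changed, 3.59% upward and 4.48% downward. Leaving out descending TGFβ replicate 1 or 2 left 2 (Acta2 and Actg2), leaving out TGFβ replicate 3 left 3 (Acta2, Actg2 and Myl9), and leaving out control replicate 1 or 2 left 4, without Cnn1. Without descending control replicate 3 all 10 changed, 9 upward and Des downward, where 52.9% of 14311 genes changed, 26.6% upward and 26.3% downward. The median of the 10 genes was 1.36 with that library, beside 0.02 over all genes, and 1.17 without it, beside -0.01.

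Marker lists of other cells moved with TGFβ too, and their part in the changes of the 10 genes was not tested. In ascending fibroblasts 3 of 4 tested pericyte markers rose and 1 fell, 3 of 8 smooth muscle cell markers outside the 10 genes rose and 3 fell, and 4 of 12 fibroblast markers rose and 8 fell. All 9 macrophage markers fell there, as did 3 of 5 mesothelial markers and 1 of 4 Schwann cell markers, while 1 of 3 endothelial markers rose and 1 fell. In descending fibroblasts with all libraries 2 of 4 pericyte markers rose and 1 fell, 1 of 9 smooth muscle cell markers rose and 1 fell, 2 of 12 fibroblast markers rose and 5 fell, 1 of 3 endothelial markers rose and 1 fell, and none of the macrophage, mesothelial or Schwann cell markers passed. Without descending control replicate 3 the counts were 3 up and 1 down of 4 for pericytes, 5 up and 2 down of 9 for smooth muscle cells, 4 up and 8 down of 12 for fibroblasts, 0 up and 6 down of 9 for macrophages, 2 up and 1 down of 4 for endothelial cells, 1 up and 1 down of 3 for Schwann cells, and 1 up and 0 down of 3 for mesothelial cells.

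Acta2 encodes smooth muscle α-actin, the usual marker of the myofibroblast, and lies on the minus strand at chr19:34241090-34255590 (GRCm38, GENCODE vM21). Its level was 2349, 2307 and 2281 CPM in the 3 descending controls and 8049, 7955 and 7602 in descending TGFβ. In ascending fibroblasts it was 1543, 1425 and 1499 CPM in control and 4989.7, 4899 and 4922 with TGFβ. Each TGFβ library lay above each control library of both sites. The rise was 3.30-fold in ascending (log2 fold change 1.72, SE 0.03, adjusted p = 2.6e-17 by edgeR's quasi-likelihood test) and 3.39-fold in descending fibroblasts (1.76, SE 0.09, adjusted p = 0.00091), and the descending value was again 1.76 (SE 0.05) without replicate 3.

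Actg2, the γ-actin of visceral smooth muscle (chr6:83512905-83536265, minus strand), was far less abundant. Descending controls had 12.2, 14.4 and 13.0 CPM and descending TGFβ libraries 36.3, 33.2 and 33.3. Ascending controls had 13.3, 14.7 and 19.0 CPM and ascending TGFβ libraries 28.8, 21.2 and 20.2. The TGFβ and control libraries did not overlap at either site, although the ascending groups came close to each other. The log2 fold change was 0.57 (SE 0.13, adjusted p = 0.0014 by edgeR) in ascending and 1.37 (SE 0.14, adjusted p = 0.0041) in descending fibroblasts, and 1.37 (SE 0.09) without descending control replicate 3.

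Among the tropomyosins, which wind along the actin filament, Tpm1 (chr9:67022590-67049406, minus strand, 21 annotated transcripts) rose about as much as Acta2. It had 675, 629 and 973 CPM in descending controls, 2141, 2112 and 1987 in descending TGFβ, 498, 469 and 486 in ascending controls and 1498, 1538 and 1470.0 in ascending TGFβ. The highest control, descending control replicate 3, still lay below each TGFβ library. The log2 fold change was 1.63 (SE 0.03) in ascending and 1.45 (SE 0.19, adjusted p = 0.011 by edgeR) in descending fibroblasts, and 1.68 (SE 0.05) without that library. Its descending call was lost with any 1 TGFβ library left out, at adjusted p = 0.072 to 0.077. Tpm2 (chr4:43514711-43523765, minus strand) moved less, from 617, 592 and 767 to 986, 964 and 924 CPM in descending and from 351, 352 and 367 to 479, 511 and 482 CPM in ascending fibroblasts. Its log2 fold change was 0.46 (SE 0.03) in ascending and 0.53 (SE 0.14, adjusted p = 0.077) in descending fibroblasts, where it passed the test without replicate 3 (0.67, SE 0.05).

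Cnn1 encodes calponin 1, which binds actin and restrains myosin (chr9:22099216-22109630, plus strand). It had 35.3, 32.8 and 11.2 CPM in descending controls, 100.3, 98.6 and 105 in descending TGFβ, 11.9, 10.7 and 11.1 in ascending controls and 45.3, 42.5 and 42.1 in ascending TGFβ. The descending TGFβ libraries held the highest levels, and descending control replicate 3 lay within the ascending controls. The rise was 3.83-fold in ascending (log2 fold change 1.94, SE 0.07) and 3.80-fold in descending fibroblasts (1.93, SE 0.42, adjusted p = 0.048 by edgeR), but 2.98-fold in descending fibroblasts without replicate 3 (1.57, SE 0.06). The descending call of Cnn1 was lost with any 1 of the other 5 libraries left out, at adjusted p = 0.089 to 0.19 by edgeR.

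Tagln encodes transgelin, a small actin-bundling protein (chr9:45929619-45936058, minus strand). It had 9.26, 10.0 and 3.79 CPM in descending controls, 20.4, 17.2 and 21.4 in descending TGFβ, 7.43, 6.30 and 7.84 in ascending controls and 20.9, 18.8 and 21.7 in ascending TGFβ. The TGFβ libraries of the 2 sites overlapped and lay above every control. The log2 fold change was 1.50 (SE 0.10) in ascending and 1.34 (SE 0.37, adjusted p = 0.092 by edgeR) in descending fibroblasts, and 1.03 (SE 0.11) without descending control replicate 3. Of the genes that overlap it on the other strand, Pcsk7 had 205 to 922 and Gm48529 0 to 68 counts per library, beside 55 to 452 for Tagln. Gm48529, with which 55.4% of the 50-base sequences of Tagln exons are shared, was listed at 0 in descending control replicate 3, at 0.800 to 1.09 CPM in the other controls and at 1.90 to 3.31 CPM in the TGFβ libraries, so it was higher with TGFβ as Tagln was, and how reads in the overlap were assigned is not given in the sources used here.

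Lmod1, leiomodin 1, which nucleates actin filaments in smooth muscle (chr1:135324807-135368065, plus strand), had 40.3, 34.4 and 93.3 CPM in descending control and 62.3, 56.9 and 65.8 in descending TGFβ. In ascending fibroblasts it had 41.9, 45.0 and 41.4 CPM in control and 47.5, 55.6 and 50.2 with TGFβ. Descending control replicate 3 was the highest of all 12 libraries, above every TGFβ library. The ascending rise was small, at a log2 fold change of 0.25 (SE 0.06, adjusted p = 0.0018 by edgeR), and it did not pass when all 12 libraries shared one fit (adjusted p = 0.70). The descending value was 0.13 (SE 0.40, adjusted p = 0.87) with that library and 0.73 (SE 0.08, adjusted p = 2.0e-09) without it.

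Myh11 encodes the heavy chain of smooth muscle myosin (chr16:14194535-14291372, minus strand) and was the one gene whose response differed in direction between the sites without descending control replicate 3. It had 43.6, 44.5 and 83.8 CPM in descending controls, 67.3, 81.2 and 75.6 in descending TGFβ, 23.4, 25.5 and 23.2 in ascending controls and 17.7, 16.8 and 12.5 in ascending TGFβ. The ascending TGFβ libraries all lay below the ascending controls, and the descending TGFβ libraries lay above the descending controls other than replicate 3. In ascending fibroblasts it fell by 0.63 on the log2 scale (SE 0.10, adjusted p = 5.2e-05 by edgeR), which did not pass when all 12 libraries, including the one that stood apart, shared one fit (adjusted p = 0.12). In descending fibroblasts the value was 0.38 (SE 0.29, adjusted p = 0.49) with all libraries and a rise of 0.77 (SE 0.07, adjusted p = 1.4e-10) without replicate 3.

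Myl9, the regulatory light chain that is phosphorylated when smooth muscle contracts (chr2:156775420-156781658, plus strand), rose at both sites. It had 165, 151 and 116 CPM in descending controls, 396, 403 and 369 in descending TGFβ, 147, 145 and 147 in ascending controls and 278, 287 and 276 in ascending TGFβ. The controls of the 2 sites overlapped, whereas the TGFβ libraries did not. The log2 fold change was 0.93 (SE 0.03) in ascending and 1.43 (SE 0.16, adjusted p = 0.0061 by edgeR) in descending fibroblasts, and 1.30 (SE 0.06) without descending control replicate 3. Its descending call was lost without TGFβ replicate 1 (adjusted p = 0.055) or 2 (adjusted p = 0.056).

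Des, desmin, the muscle intermediate filament protein (chr1:75360329-75368579, plus strand), went the other way and was near the limit of detection, with 11 to 77 counts per library. It had 1.87, 1.56 and 1.86 CPM in descending controls, 0.715, 0.759 and 0.520 in descending TGFβ, 3.35, 3.00 and 2.63 in ascending controls and 1.78, 0.852 and 0.926 in ascending TGFβ. At each site all TGFβ libraries lay below all controls. It fell by 1.35 on the log2 scale in ascending (SE 0.28, adjusted p = 5.4e-04 by edgeR), and the descending value was -1.41 (SE 0.43, adjusted p = 0.12), or -1.37 (SE 0.36, adjusted p = 0.0018) without replicate 3.

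**Figure D2:**
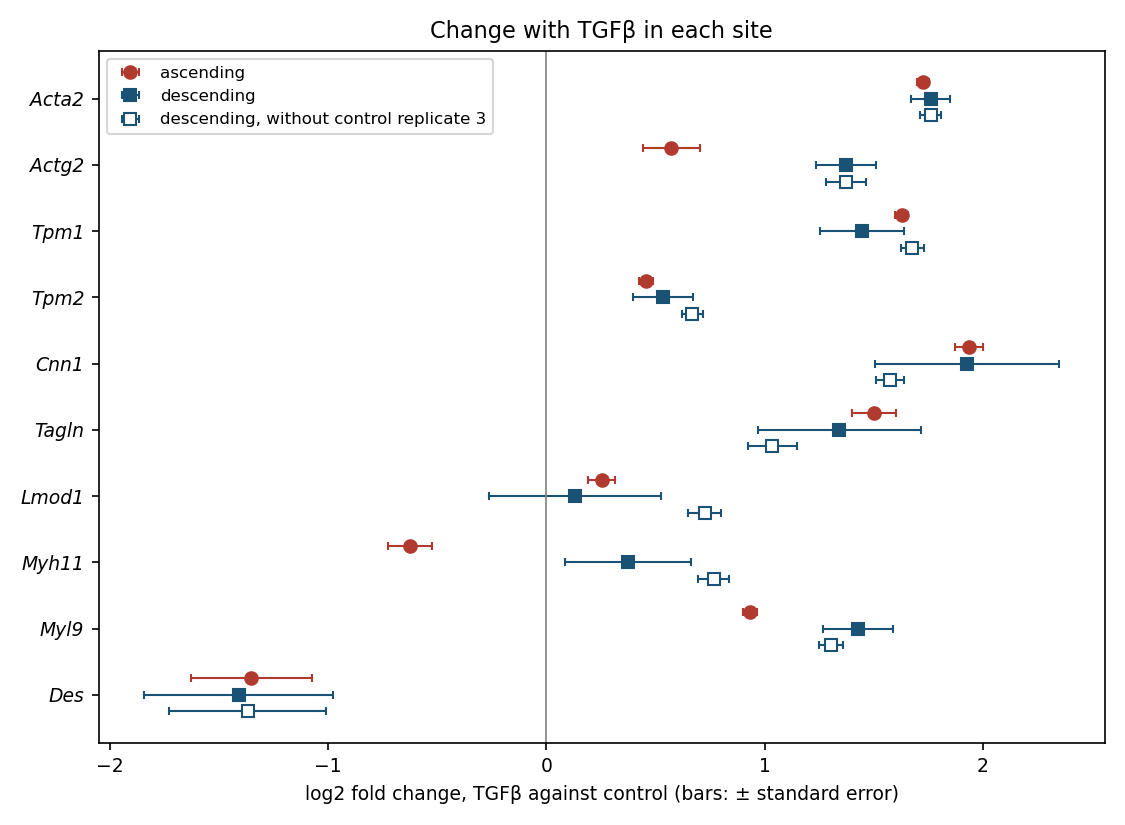
Log2 fold change of TGFβ against control (x axis) for each gene (y axis) in ascending and descending fibroblasts, the latter with and without descending control replicate 3. Bars are ± 1 standard error. Acta2 and Tpm1 lie near the same value at both sites, Des lies at about -1.4 in each, and Myh11 is at -0.63 in ascending and at 0.38 or 0.77 in descending fibroblasts.

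Whether the response itself differed between the sites was tested as the interaction of site and treatment, where a negative value means a less positive change in ascending fibroblasts. With all 12 libraries none of the 10 genes passed edgeR's quasi-likelihood test after adjustment, 3 had an unadjusted p under 0.05 (Actg2, Myh11 and Myl9), and DESeq2's Wald test called 2 of them (Actg2 and Myl9), while edgeR called 0.806% of 14637 genes, 0.321% with a positive and 0.485% with a negative value. The values of those 3 genes were -0.80 (SE 0.24, adjusted p = 0.21) for Actg2, -1.01 (SE 0.34, adjusted p = 0.30) for Myh11 and -0.50 (SE 0.16, adjusted p = 0.26) for Myl9. Without descending control replicate 3, 7 genes passed, where 13.5% of 15013 genes did, 6.07% with a positive and 7.4% with a negative value. Negative values were found for 5, led by Myh11 at -1.39 (SE 0.13, adjusted p = 3.8e-08 by edgeR), with Actg2, Lmod1, Myl9 and Tpm2 between -0.80 and -0.21. Cnn1 (0.37, SE 0.09) and Tagln (0.47, SE 0.15) were positive. With all 12 libraries Lmod1 had the opposite sign (0.11, SE 0.42), and the values of Tpm2 (-0.08, SE 0.14), Cnn1 (0.02, SE 0.43) and Tagln (0.17, SE 0.40) lay nearer to 0. The remaining 3 genes were at -0.04 (SE 0.09) for Acta2, 0.18 (SE 0.20) for Tpm1 and 0.07 (SE 0.45) for Des. Acta2 did not pass in either fit, and its interval without replicate 3, from -0.12 to 0.06 on the log2 scale (95%), held 0, as did that of Tpm1, from -0.15 to 0.06. The interval of Des, from -0.74 to 0.79, was wide.

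The second question was how the sites differed before and after treatment. Under TGFβ, a comparison that does not use the library that stood apart, 8 of the 10 genes were lower in ascending than in descending fibroblasts by edgeR's quasi-likelihood test and none was higher, where 36.3% of 13678 genes differed, 18.2% lower and 18.1% higher. The median log2 difference of the 10 genes was -0.51, beside 0.00 over all genes. Myh11 differed most, with 12.5 to 17.7 CPM in ascending and 67.3 to 81.2 in descending TGFβ libraries (-2.25, SE 0.08, adjusted p = 6.6e-19). Cnn1 was next at -1.22 (SE 0.05, adjusted p = 3.9e-18), followed by Tpm2 at -0.96 (SE 0.04) and Acta2 at -0.67 (SE 0.03, adjusted p = 3.7e-16). Actg2 (-0.55, SE 0.09), Myl9 and Tpm1 (both -0.47, SE 0.04) and Lmod1 (-0.27, SE 0.06) differed less. Actg2, Tpm1 and Lmod1 did not pass when all 12 libraries shared one fit (adjusted p = 0.083, 0.074 and 0.91 by edgeR). Tagln did not pass, with a log2 difference of 0.06 and an interval from -0.12 to 0.23 (95%), and neither did Des at 0.83 (SE 0.37, adjusted p = 0.086).

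Markers of other cells differed between the sites under TGFβ as well. Of the 8 smooth muscle cell markers outside the 10 genes that were tested, 7 were lower and 1, Kcnmb1, was higher in ascending fibroblasts, and all 4 pericyte markers tested were lower. Of the other lists, 9 of 12 fibroblast markers were lower and 3 higher, 2 of 3 endothelial markers were lower, 4 of 9 macrophage markers were higher, and mesothelial (2 of 3) and Schwann cell markers (2 of 4) were higher with 1 lower in each list. Rgs4, a regulator of G-protein signalling, differed by -2.62 (SE 0.07), Itga8, an integrin subunit, by -2.37 (SE 0.08), and Cacna1c, the pore of the L-type calcium channel, by -1.99 (SE 0.13) on the log2 scale. Rgs5, a pericyte marker, differed by -1.21 (SE 0.07) and Cspg4 by -1.04 (SE 0.05). The summed smooth muscle list thus lay at 213 to 228 CPM in ascending and 422 to 450 CPM in descending TGFβ libraries, and its part in the site difference of the 10 genes was not tested.

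How many of the 10 genes differed between the sites in control cultures depended on the library that stood apart. With it, 2 of the 10 genes were lower in ascending fibroblasts, where 2.65% of 14090 genes differed, 1.47% lower and 1.19% higher: Acta2 at -0.63 (SE 0.09, adjusted p = 0.027 by edgeR) and Tpm2 at -0.88 (SE 0.14, adjusted p = 0.035). Leaving out any 1 of the other 5 control libraries left 0 of the 10 genes called. Without descending control replicate 3, 6 were lower and 2 higher, where 31.6% of 14644 genes differed, 15.2% lower and 16.4% higher. The lower genes were Cnn1 (-1.58, SE 0.08), Myh11 (-0.86, SE 0.06), Tpm2 (-0.75, SE 0.04), Acta2 (-0.63, SE 0.03), Tpm1 (-0.42, SE 0.04) and Tagln (-0.41, SE 0.14). Des was higher in ascending controls (0.81, SE 0.24, adjusted p = 0.018), and so was Lmod1 by a small margin (0.21, SE 0.07, adjusted p = 0.048), whose value with all libraries had the opposite sign (-0.39, SE 0.40, adjusted p = 0.67). Actg2 (0.25, SE 0.14) and Myl9 (-0.10, SE 0.05) did not pass. With all libraries the other values, none of which passed, were -1.23 (SE 0.42) for Cnn1, -1.25 (SE 0.29) for Myh11, -0.65 (SE 0.19) for Tpm1, -0.09 (SE 0.38) for Tagln, 0.25 (SE 0.19) for Actg2 and 0.77 (SE 0.32) for Des. Myl9, at 0.03 (SE 0.15), had the opposite sign there. Without that library, 6 of 11 tested smooth muscle cell markers outside the 10 genes were lower in ascending controls and 1 was higher, and 3 of 4 pericyte and 8 of 12 fibroblast markers were lower, with 2 fibroblast markers higher. In the other direction 4 of 5 mesothelial markers were higher and 1 lower (median log2 difference 3.77), 3 of 4 Schwann cell markers were higher (median 5.15), 5 of 9 macrophage markers were higher, and none of 3 endothelial markers passed. With all libraries 1 fibroblast, 1 Schwann cell and 2 mesothelial markers were higher, 2 fibroblast markers were lower, and no marker of the other lists passed. The part of these cells in the site difference was not tested.

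**Figure D3:**
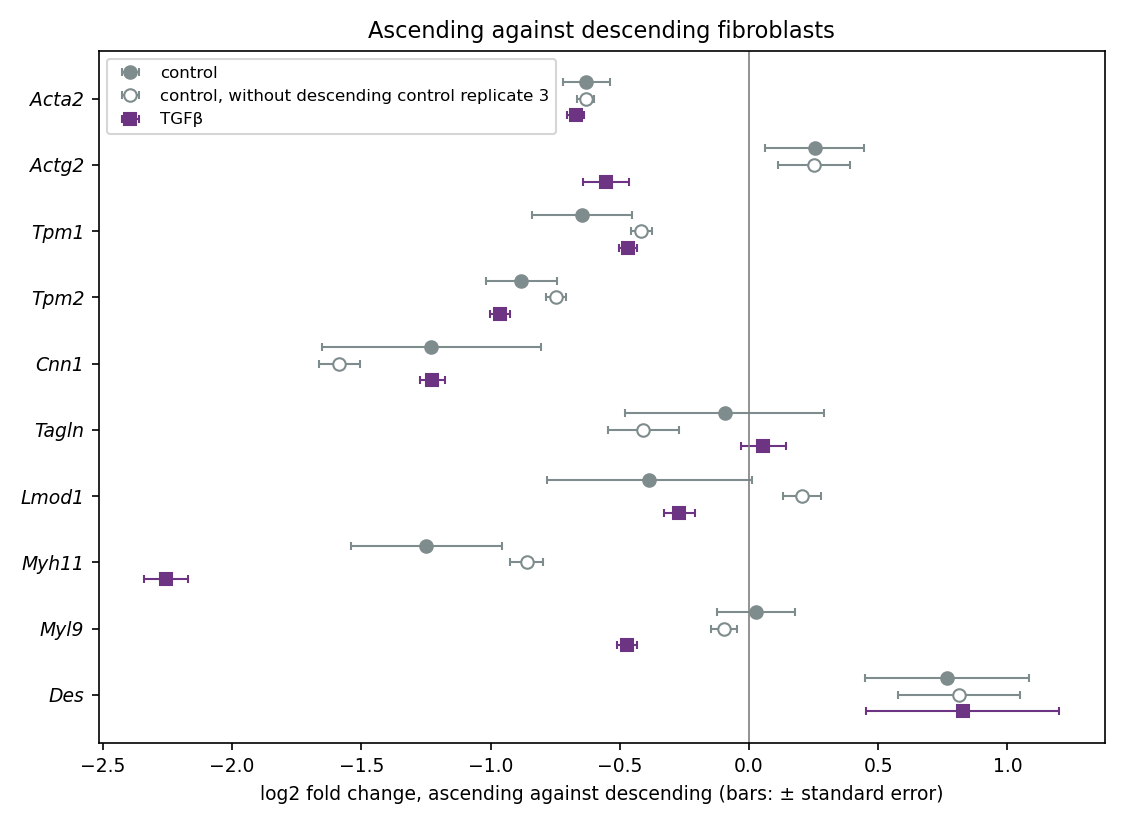
Log2 difference of ascending against descending fibroblasts (x axis) for each gene (y axis) in control, in control without descending control replicate 3, and under TGFβ, with bars of ± 1 standard error. Myh11 lies at -2.25 under TGFβ and at -0.86 or -1.25 in control, Acta2 lies near -0.65 in all 3, and Actg2 is at 0.25 in control and at -0.55 under TGFβ.

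The comparisons share libraries (each control group enters a treatment and a site comparison, as does each TGFβ group), so the values above are set side by side and not correlated. The changes with TGFβ at the 2 sites share none.

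Within the protein families, the share of the smooth muscle member was computed from levels per kb of exon, as a description with no test. Acta2 made up 25.8% ± 0.465 (SD, n = 3) of the level of 6 actin genes in ascending controls and 41.7% ± 0.444 in ascending TGFβ, and 36.3% ± 5.14 in descending control (33.4% without replicate 3) and 51.2% ± 1.16 in descending TGFβ. The cytoplasmic β-actin Actb made up 47.5% ± 0.884, 36.6% ± 0.499, 41.3% ± 4.24 (43.8% without replicate 3) and 29.9% ± 0.550 in the same order. Ascending control thus had the lowest and descending TGFβ the highest Acta2 share, and the libraries of these 2 groups did not overlap. Tpm1 made up 11.6% ± 0.275 and 22.6% ± 0.468 of the tropomyosin level in ascending controls and TGFβ, and 12.0% ± 0.581 (11.8% without replicate 3) and 24.2% ± 0.517 in descending control and TGFβ. Its share roughly doubled at both sites while that of Tpm4, a tropomyosin of non-muscle cells, was 56.1% ± 0.236, 50.6% ± 1.03, 54.4% ± 0.782 (54.5% without replicate 3) and 43.7% ± 0.808. The Tpm2 share was 19.0% ± 0.367 in ascending control, 16.5% ± 0.618 in ascending TGFβ, 23.6% ± 1.38 in descending controls (24.3% without replicate 3) and 24.9% ± 0.297 in descending TGFβ. Myh11 was a small part of the myosin heavy chains, 2.23% ± 0.0738 in ascending control, 0.985% ± 0.158 in ascending TGFβ, 4.35% ± 1.44 in descending control (3.52% without replicate 3) and 3.79% ± 0.247 in descending TGFβ. The non-muscle heavy chain Myh9 made up 82.1% ± 1.04, 86.8% ± 0.381, 78.4% ± 2.66 (79.8% without replicate 3) and 78.1% ± 0.344 in the same order. Family members share sequence, with 37.4% of the 50-base sequences of Actg1 exons, 23.2% of Tpm3 and 15.7% of Tpm4 also found in other genes, so the shares depend on how such reads were counted. They depend on the gene length too, and were computed again with the length of the longest transcript in place of all exons. The Acta2 share was then 21.4% and 35.8% in ascending and 30.9% (28.1% without replicate 3) and 45.1% in descending control and TGFβ. The Tpm1 share was 18.1% and 33.5% in ascending and 19.2% (19.0% without replicate 3) and 35.9% in descending control and TGFβ. The Myh11 share was 1.55% and 0.678% in ascending and 3.07% (2.47% without replicate 3) and 2.68% in descending control and TGFβ. The descending Tpm2 share went from 22.5% (23.4% without replicate 3) to 22.0%, the reverse of its direction above.

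**Figure D4:**
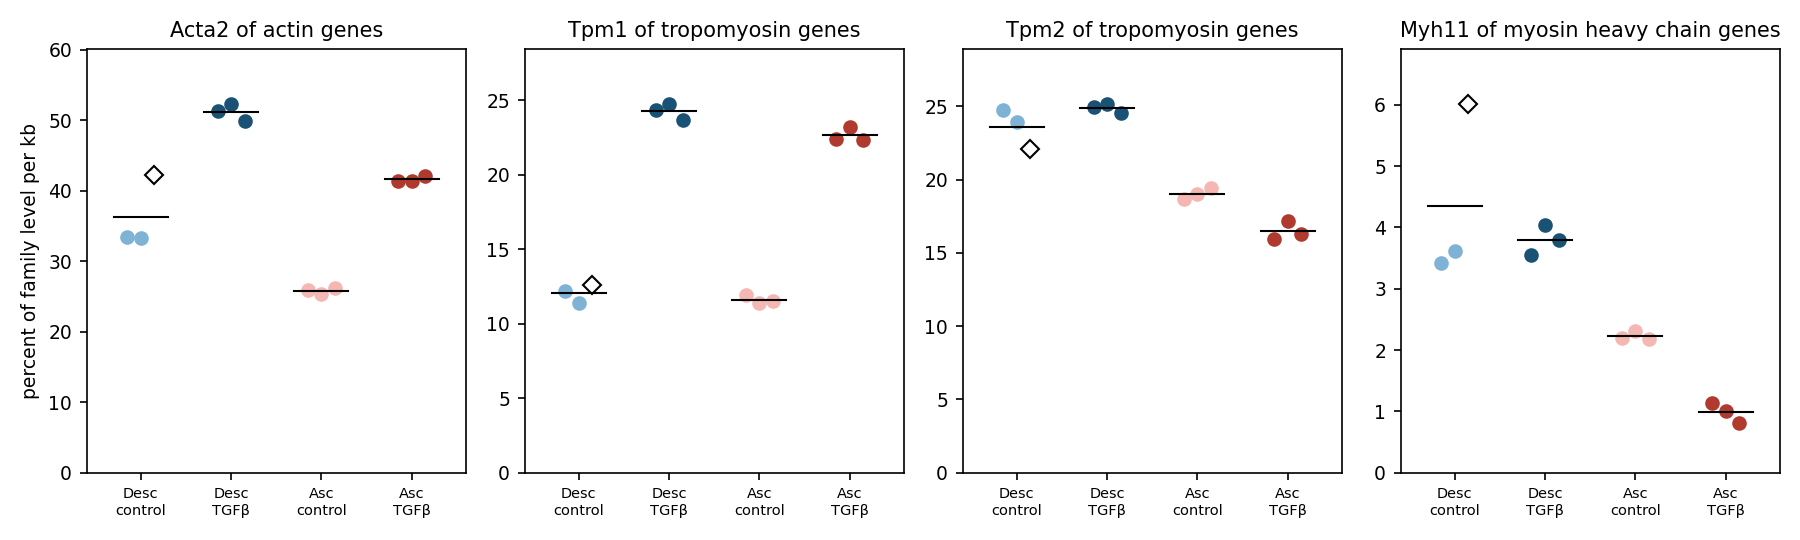
Percent of the summed level per kb of exon of its gene family (y axis, linear, from 0) held by Acta2, Tpm1, Tpm2 and Myh11 in each library, by group on the x axis. Lines are group means over 3 libraries and the open diamond is descending control replicate 3. The Acta2 and Tpm1 shares were higher in TGFβ than in control libraries of the same site, and the Myh11 share was lowest in ascending TGFβ, at 0.817 to 1.13%.

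Other genes of the contractile machinery moved in both directions. Of 39 other contractile and actin filament genes tested in ascending fibroblasts, 22 rose and 13 fell with TGFβ (28.2% and 27.6% of all genes), with a median log2 fold change of 0.19. In descending fibroblasts 5 of 38 rose and 3 fell with all libraries (3.59% and 4.48% of all genes), and 26 rose and 10 fell without descending control replicate 3 (26.6% and 26.3%). Synpo2, an actin-bundling protein of muscle, rose by 1.44 (SE 0.09) in ascending and by 2.31 (SE 0.23, adjusted p = 0.0041 by edgeR; 2.55 without replicate 3) in descending fibroblasts on the log2 scale, and Tagln2, the non-muscle relative of Tagln, rose by 1.38 (SE 0.03) and 1.56 (SE 0.14, or 1.48 without replicate 3). The filament capping gene Tmod3 fell by 1.09 (SE 0.03) in ascending and by 0.87 (SE 0.18, adjusted p = 0.038, or 0.67 without replicate 3) in descending fibroblasts. Fhl1, a LIM domain protein, fell by 1.14 (SE 0.04) in ascending fibroblasts and had a value of -0.16 (SE 0.11, adjusted p = 0.43) in descending ones, where it passed without replicate 3 (-0.21, SE 0.05). Its interaction passed with all libraries (-0.98, SE 0.11, adjusted p = 0.0041 by edgeR) and was -0.93 (SE 0.06) without replicate 3. Under TGFβ 19 of 39 were lower in ascending fibroblasts and 8 higher (18.2% and 18.1% of all genes), among the lower ones Fhl2 (-1.43, SE 0.04) and Csrp1 (-1.33, SE 0.04).

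The other lists are read against the same shares of all genes, which were 28.2% up and 27.6% down in ascending fibroblasts, 3.59% and 4.48% in descending fibroblasts, and 26.6% and 26.3% there without replicate 3. Of the cytoplasmic actin, myosin and tropomyosin genes 8 of 10 rose and 1 fell in ascending fibroblasts, and 4 of 9 rose and none fell in descending fibroblasts (8 of 9 rose without replicate 3). Of 6 striated muscle genes tested in ascending fibroblasts 1 rose and 3 fell (Tnnt2, Myl4 and Myl2), and in descending fibroblasts 1 of 6 rose and none fell, or 2 of 8 rose and 3 fell without replicate 3. The one that rose with all libraries at both sites was Acta1, skeletal muscle α-actin, with a log2 fold change of 4.20 (SE 0.18), and it rose by 3.61 (SE 0.25, adjusted p = 0.0016 by edgeR, or 3.57 without replicate 3) in descending fibroblasts, although it stayed under 1% of the actin level in every library. Of 12 regulators of contractile genes tested in ascending fibroblasts 5 rose and 5 fell. Srf, serum response factor, rose by 0.41 (SE 0.05) and its coactivator Mkl1 by 0.36 (SE 0.04) there. In descending control and TGFβ Srf averaged 58.2 (57.9 without replicate 3) and 80.4 CPM, and Mkl1 94.0 (103 without replicate 3) and 130 CPM. Klf4, a repressor of smooth muscle genes, fell by 1.56 (SE 0.03) in ascending and by 0.75 (SE 0.12, adjusted p = 0.019 by edgeR) in descending fibroblasts. Its interaction was -0.81 (SE 0.12, adjusted p = 0.015 by edgeR). Without replicate 3 the descending fall of Klf4 was -0.81 (SE 0.05) and its interaction -0.75 (SE 0.07). In descending fibroblasts none of 13 regulators rose and 2 fell with all libraries, and 5 rose and 5 fell without replicate 3. Of 11 genes listed as TGFβ response genes, 9 rose and 2 fell (Tgfbi and Ski) in ascending fibroblasts. In descending fibroblasts 6 rose and 1 fell (Tgfbi), or 9 and 1 without replicate 3.

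Across libraries the 10 genes did not vary as one group. Over the 11 libraries other than descending control replicate 3, Pearson's r of log2 CPM was 0.996 between Acta2 and Tpm1 and 0.984 between Acta2 and Myl9, but 0.39 between Acta2 and Myh11 and 0.10 between Tagln and Myh11, and Des had negative values with all 9 other genes. Over all 12 libraries r was 0.983 between Acta2 and Tpm1, 0.952 between Acta2 and Myl9 and 0.28 between Acta2 and Myh11. Between Tagln and Myh11 it was -0.17, the opposite sign, and Des kept negative values with all 9. The libraries fall into 4 groups, so these values describe the group pattern and carry no p. Among 14637 genes, the patterns most like that of Acta2 over 12 libraries were those of Arxes2 and Bag2 (both r = 0.996) and Pdzrn3 (0.993), and without replicate 3 that of Ncam1 (0.999), with Bag2 and Pdzrn3 again among the first 5. The pattern of Cnn1 was most like that of Ephb3 (0.981), and without replicate 3 like those of Rhob (0.998) and Tgfb1i1 (0.995), while that of Tpm2 was most like those of Palld (0.989) and F3 (0.988), and that of Des most like that of Cdh13 (0.957). Without replicate 3 the first for Tpm2 was Vegfa (0.992), with F3 and Palld still among the first 5, and the first for Des was Pkd2l2 (0.979), with none of its former first 5 kept.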

How the data were processed

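RNA of 12 adventitial fibroblast cultures (3 in each of 4 groups) was sequenced as paired-end reads. The authors deposited raw gene counts, made with featureCounts on mm10; the submitters' processing notes also name FastQC, STAR and DESeq2, and the strand setting and the treatment of reads that match several genes are not given in the sources used here. Counts as deposited were tested with edgeR 4.0.16 in R 4.3.3: TMM scaling, filterByExpr defaults (minimum count 10, minimum total 15) on the groups compared, the two-sided quasi-likelihood F-test, and Benjamini-Hochberg adjustment over all genes tested, with a call at an adjusted p under 0.05. The interaction was fitted over 12 libraries. SE is the absolute log2 fold change divided by the square root of F, and intervals are 1.96 SE to each side. With so few libraries such an interval is narrower than a 95% interval of the F-test. Correlations used log2 CPM with a prior count of 2. Exon lengths, positions and overlaps came from GENCODE vM21, and promoters from RefSeq. Alternatives were DESeq2 1.42.0, its size factors, other filters, a replicate block, 12 libraries in one fit, voom with quality weights (limma 3.58.1), and leaving out each library. The fits were tested on simulated data. All 10 genes are named in each comparison; from each other list, at most 3 genes a direction were eligible, those of smallest adjusted p, along with family partners, and for Acta2, Cnn1, Tpm2 and Des the 5 genes of highest r were listed. The genes and lists were chosen with earlier results of these data known.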

Additional observations from a re-analysis of the deposited data

Results flagged for a closer look

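For 7 genes the change with TGFβ differed between the sites by edgeR's interaction test with Benjamini-Hochberg adjustment, in the fit without descending control replicate 3, where 13.5% of 15013 genes passed; none of them passed with all 12 libraries, where 0.806% of 14637 genes did. Negative values mean a less positive change in ascending fibroblasts. They were Myh11 (-1.39, SE 0.13, adjusted p = 3.8e-08), Actg2 (-0.80, SE 0.18, adjusted p = 0.0028), Lmod1 (-0.47, SE 0.10, adjusted p = 0.0026, but 0.11 with all libraries), Myl9 (-0.37, SE 0.06, adjusted p = 0.00014) and Tpm2 (-0.21, SE 0.05, adjusted p = 0.011). Positive values were found for Tagln (0.47, SE 0.15, adjusted p = 0.043) and Cnn1 (0.37, SE 0.09, adjusted p = 0.0072).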

How the results depend on the processing

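Of 700 values of single genes under alternatives, 620 stayed on their side of the threshold; 27 changed sign, 24 of them without a call in either fit and 3 with one, all of Lmod1. Lmod1 between sites in control was 0.21 without descending control replicate 3 (-0.64 to 0.21 over all libraries left out in turn), and its interaction was -0.47 without that library (-0.47 to 0.37) and -0.48 with voom weights. In ascending fibroblasts all 10 genes passed with each library left out, and 8 did with 12 libraries in one fit, which lost Myh11 and Lmod1. In descending fibroblasts 5 passed, against 8 with DESeq2's Wald test, 8 with 12 libraries in one fit and 10 with voom weights, and 2 to 10 with 1 library left out: 10 without control replicate 3, 2 without TGFβ replicate 1 or 2 and 3 without TGFβ replicate 3. Between sites in control 2 passed, against 0 without a filter, 5 with 12 libraries in one fit and 7 with voom weights, and 0 to 8 with 1 library left out. Between sites under TGFβ 8 passed, against 5 with 12 libraries in one fit, which lost Actg2, Tpm1 and Lmod1. In the interaction 0 passed, against 2 with DESeq2's Wald test and 6 with voom weights, and 0 to 7 with 1 library left out. The cause was not tested. Same-numbered replicates did not deviate together (r from -0.026 to 0.088 over 18 pairs); with a replicate block 1 gene (Acta2) passed for TGFβ in descending fibroblasts and 0 between sites in control. Des had 11 to 77 counts per library, and its SE of 0.28 in ascending fibroblasts was the largest of the 10 genes there.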
